A study of Homo sapiens with 6 samples.

Results

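A group of 37 genes that make ribosomes, or that stand close to ribosome production as classical targets of the transcription factor MYC, was described in Raji cells with lowered OBF1. The genes were chosen as a fixed list of symbols by what they encode, but with earlier results of these data known. Each symbol was matched to its numeric gene identifier. All 37 had a row among the 23459 rows of the count table, and all 37 passed the filter on low counts that left 12010 genes for testing. Raji is an established cell line from a Burkitt's lymphoma, a tumour of germinal centre B cells. The knockdown cells carried the lentiviral hairpin clone OBF1sh1 in a pLKO.1 vector, directed against OBF1, a B cell coactivator encoded by POU2AF1. The control cells carried the non-target hairpin SHC002. Both had 5 days of infection and then 7 days in 3 μg/ml puromycin, and each group had 3 poly(A) libraries. The knockdown thus rests on 1 hairpin in 1 line, set against 1 control hairpin.

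The libraries held between 29569281 and 32612429 counts. POU2AF1 had 244, 241 and 241 CPM in OBF1 shRNA libraries, against 512, 516 and 512 CPM in control libraries, so the targeted transcript was lower in all OBF1 shRNA libraries. All 8 listed B cell markers were expressed, with a summed level of 4465 to 4531 CPM in OBF1 shRNA and 2568 to 2637 CPM in control libraries, CPM being counts scaled to library size after TMM adjustment, a trimmed mean of log ratios. Much of that difference came from MS4A1, at 2066 to 2096 CPM in OBF1 shRNA and 692 to 719 CPM in control libraries. CD79B was the 1 marker that was lower, at 584 to 624 CPM in OBF1 shRNA and 644 to 692 CPM in control libraries. Markers of other cells had far lower sums, though some of these markers differed between the groups. The 6 myeloid markers summed to 2.04 to 2.30 CPM in OBF1 shRNA and 1.90 to 1.98 CPM in control libraries, with MPO at 0 in all. The 7 markers of T and NK cells gave 0.844 to 0.926 CPM in OBF1 shRNA and 0.0960 to 0.208 CPM in control libraries, with CD3D and CD2 at 0 in all 6. Of these, NKG7 had 0.734 to 0.844 CPM in OBF1 shRNA and 0.0320 to 0.208 CPM in control libraries. The 6 non-blood markers summed to 31.8 to 33.0 CPM in OBF1 shRNA and 2.68 to 2.82 CPM in control libraries. Nearly all of it came from COL1A1, which was higher in OBF1 shRNA (31.5 to 32.8 CPM) than in control libraries (2.57 to 2.72 CPM). No library held more than 0.0638 CPM of COL1A2 or COL3A1. The part of these markers in the results below was not tested. Separate cultures are not stated for replicate libraries, so the p-values reflect library-to-library spread that may be technical.

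Ribosome production begins in the nucleolus, where RNA polymerase I transcribes a long precursor RNA. Small nucleolar ribonucleoproteins (snoRNPs) guide its chemical modification and cleavage, and separate sets of assembly factors build the small and the large subunit. MYC is known to raise transcription of many of these genes, often through the E-box sequence CACGTG near their start sites, and Burkitt's lymphoma cells carry a translocated MYC gene. MYC itself had 229.9 ± 4.25 CPM in OBF1 shRNA and 255 ± 2.16 CPM in control libraries (SD, n = 3 each), a log2 fold change of -0.15 (SE 0.03, edgeR quasi-likelihood adjusted p = 3.95e-05).

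The start sites were searched for the E-box, since it is the sequence by which this group is best known. A window of 250 bases before to 50 bases after an annotated start (RefSeq, GRCh38.p14) was at hand for 31 of the 37 genes. CACGTG, which reads the same on both strands, was present for 16 of these 31 genes, or 51.6%. It was present for 13% of the 9514 tested genes with a window. Counted by window, it was in 16 of 41 windows of the group, or 39%, and in 7.26% of all 35116 windows. The genes were chosen in part as MYC targets, so these shares are no independent evidence of MYC binding. The motif was found in 6 of 13 genes of the group that were higher in OBF1 shRNA cells, in 4 of 8 that were lower and in 6 of 10 that were not called. Over all tested genes with a window, it was found for 13.2% of the higher, 13.2% of the lower and 12.4% of those not called. Stretches around the motif follow for the called genes with the strongest change in each direction among those that hold it, SRM and FBL (higher), then SLC19A1 and WDR43 (lower), on the gene's own strand with the E-box in capitals.
SRM: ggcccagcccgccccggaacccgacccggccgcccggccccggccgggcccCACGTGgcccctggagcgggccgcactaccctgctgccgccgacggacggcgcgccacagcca
FBL: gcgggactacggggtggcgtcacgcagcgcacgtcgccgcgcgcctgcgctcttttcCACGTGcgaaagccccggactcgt
SLC19A1: ttcgcgcccaggCACGTGttgcttcgggac
WDR43: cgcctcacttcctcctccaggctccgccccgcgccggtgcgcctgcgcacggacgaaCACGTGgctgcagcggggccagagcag
The SRM stretch (gene identifier 6723) lies at chr1:11060155-11060268 (minus strand), with the motif starting 199 bases before the start site. That of FBL (2091) lies at chr19:39846350-39846430 (minus strand), that of SLC19A1 (6573) at chr21:45541797-45541826 (minus strand) and that of WDR43 (23160) at chr2:28894613-28894696 (plus strand), all in GRCh38.p14. In FBL, SLC19A1 and WDR43 the motif begins at bases 7, 33 and 4 of the transcribed part. SLC19A1 has 4 annotated windows, and 1 of them holds the motif. The same letters thus stood at the starts of genes that were higher and of genes that were lower. A match is a description of the sequence and does not show a bound site.

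The group moved little and in both directions. Under TMM scaling, OBF1 shRNA cells had 15 of the 37 genes higher and 10 lower, with 12 not called (edgeR's quasi-likelihood test at an adjusted p of 0.05 after Benjamini-Hochberg adjustment over all 12010 tested genes). Together 67.6% were called, where 75.4% of all tested genes were called, 37.5% as higher and 37.9% as lower. The libraries of the groups did not overlap for 29 of the 37, 16 of them higher and 13 lower, as for 76.6% of all tested genes (38% higher and 38.7% lower). The median log2 fold change of the group was 0.01, against -0.01 over all tested genes. In a bulk sample, fewer cells of a kind and less RNA per cell cannot be told apart.

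Under TMM scaling the changes were small in size. The median size of the log2 fold change, sign left aside, was 0.12 for the 37 genes and 0.29 for all tested genes. A call together with a change of at least 1.2-fold was seen for 7 of the 37 genes and for 51.1% of all tested genes. None of the 37 reached 1.5-fold under TMM, which 23.3% of all tested genes did with a call. With library sizes alone WDR74 passed that line, at 1.54-fold lower (edgeR adjusted p = 8.29e-11). Among the 4743 tested genes of 50 to 1000 CPM, the range that holds 35 of the 37, the median size was 0.23 and 13.9% were called at 1.5-fold or more. Within 1.2-fold in either direction lay 30 of the 37 genes and 45.7% of all tested genes. In a test of the fold change against 1.2 (glmTreat), 4 of the 37 were called, BOP1, PPAN and SRM as higher and WDR74 as lower, while 40.6% of all tested genes were called (21.3% higher and 19.4% lower).

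**Figure D1:**
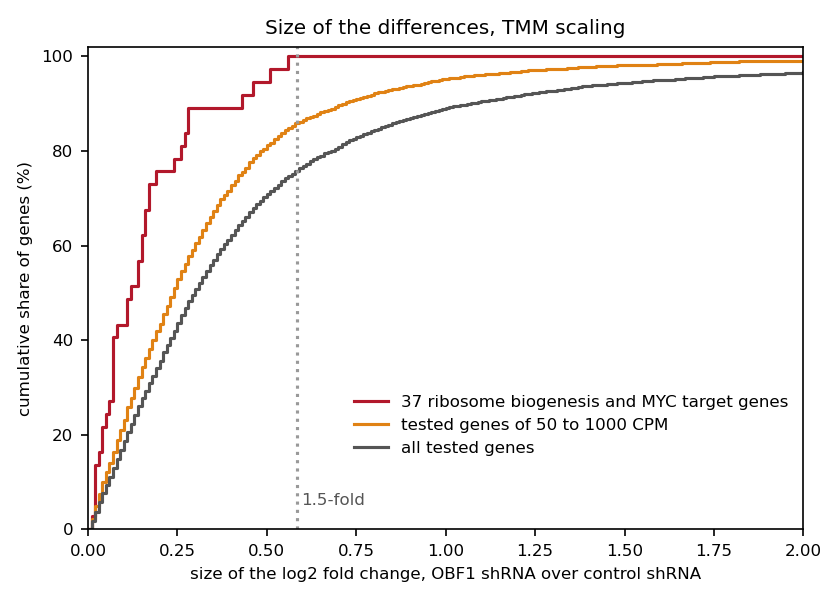
Cumulative share of genes (vertical axis, in percent) at or below each size of log2 fold change between OBF1 shRNA and control shRNA libraries (horizontal axis, sign left aside). Under TMM scaling, all 37 ribosome biogenesis and MYC target genes lie left of the dotted 1.5-fold line. Their curve runs above those of tested genes of 50 to 1000 CPM and of all tested genes.

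The direction of the group depended on the scaling. With library sizes alone, every log2 fold change moved down by about 0.11 (median shift -0.11), and 7 of the 37 genes were called higher and 21 lower, where 28.9% and 48.1% of all tested genes were (77.1% in all). The median log2 fold change was then -0.10 for the 37 genes and -0.12 over all tested genes, so the whole table shifted. The summed level of the 37 genes was 11724 ± 82.9 CPM in OBF1 shRNA and 11619 ± 152 CPM in control libraries under TMM (SD, n = 3 each), and the ranges overlapped. As a share of all counts, the same genes took at most 1.14% in any OBF1 shRNA library and more than that in every control library, at most 1.21%. NCL, NPM1, DDX21, GNL3, RRP9, UTP4, PES1 and NOP2, which lay above 0 under TMM, lay below 0 with library sizes alone, and of these NCL, GNL3 and RRP9 were then called lower. A set of 15 genes kept its call and direction in every fit other than the test against 1.2-fold. Of these 15, POLR1A, PA2G4, FBL, BOP1, PPAN, GRWD1 and SRM were higher, and POLR1B, NOLC1, DKC1, UTP20, WDR43, WDR74, ODC1 and SLC19A1 were lower.

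**Figure D2:**
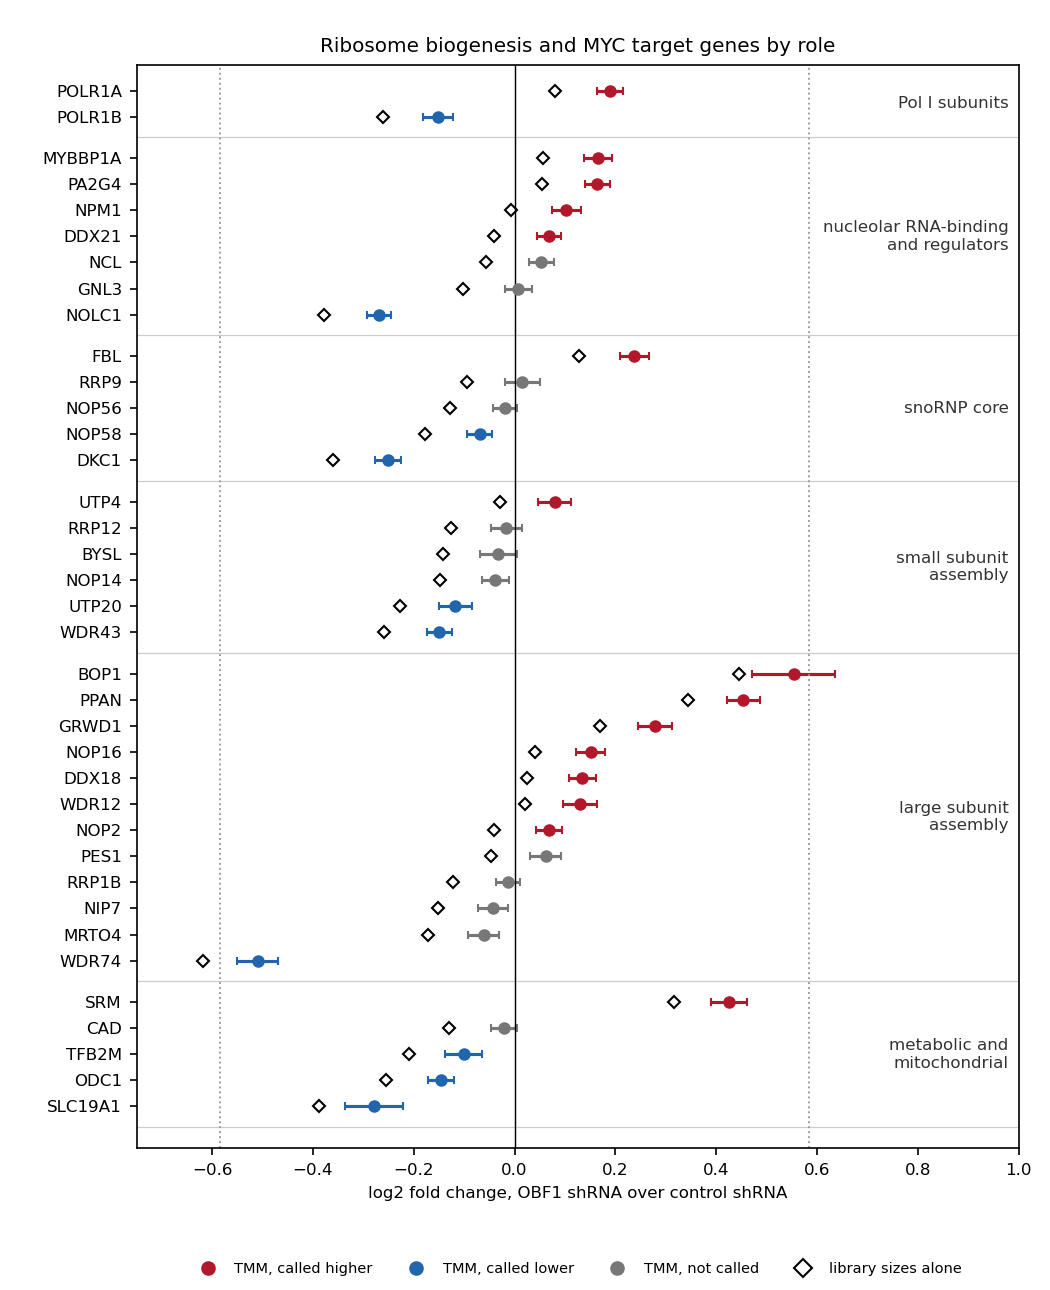
Log2 fold change of each of the 37 genes, OBF1 shRNA over control shRNA (horizontal axis), grouped by role from top to bottom. Filled circles with bars give the TMM estimate and its standard error, coloured by call, open diamonds the estimate with library sizes alone, and dotted lines 1.5-fold; every diamond lies left of its circle, by about 0.11.

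The RNA polymerase I subunits went opposite ways. POLR1A, the largest subunit of the enzyme, had 243, 233 and 233 CPM in OBF1 shRNA libraries, against 209.8, 204 and 208 CPM in control libraries. Every OBF1 shRNA library lay above every control library, and the gene was 1.14-fold higher (log2 fold change 0.19, SE 0.03, edgeR adjusted p = 4.14e-06). POLR1B, its partner in the catalytic core, had 100.4, 98.4 and 100 CPM in OBF1 shRNA libraries, against 109, 112 and 111 CPM in control libraries. Here every OBF1 shRNA library lay below the control libraries, a 1.11-fold lower level (log2 fold change -0.15, SE 0.03, edgeR adjusted p = 0.000153). The ratio of POLR1A to POLR1B counts within a library does not depend on the scaling. It was 2.37 ± 0.0442 in OBF1 shRNA and 1.87 ± 0.0513 in control libraries (SD, n = 3 each), without overlap. The pairs for this and later ratios were picked after their values were seen. A separated ratio of genes called in opposite directions is therefore no further evidence.

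Nucleolar RNA-binding proteins and regulators were higher in 4 of 7 cases and lower in 1 under TMM, where 37.5% and 37.9% of all tested genes were. With library sizes alone they were higher in 1 case and lower in 3. NCL, encoding the abundant nucleolar protein nucleolin, had 2549.9, 2660.3 and 2626 CPM in OBF1 shRNA libraries, against 2471, 2545 and 2536 CPM in control libraries. The groups did not overlap, yet the difference was small and not called (log2 fold change 0.05, SE 0.03, edgeR adjusted p = 0.0623). It passed with DESeq2 (adjusted p = 0.0304), which called 69.5% of all genes, with limma-voom (0.029), which called 75.3%, with no low-count filter (0.0258), without OBF1 shRNA replicate 1 (edgeR adjusted p = 0.0282) and without control replicate 2 (0.0364). NPM1, nucleophosmin, a histone chaperone with many processed pseudogenes, was 1.07-fold higher, at 706 ± 23.6 CPM in OBF1 shRNA and 657 ± 18.6 CPM in control libraries (SD, n = 3 each, edgeR adjusted p = 0.00333), which library sizes alone did not give (adjusted p = 0.842). NOLC1, a chaperone of snoRNPs, went the other way and had 611, 625 and 618 CPM in OBF1 shRNA libraries, against 728, 752 and 755 CPM in control libraries. All OBF1 shRNA libraries lay below the controls, a log2 fold change of -0.27 (SE 0.02, edgeR adjusted p = 1.29e-08).

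The remaining genes of this role differed little. PA2G4, also called EBP1, a growth regulator that binds ribosomes, had 517, 529 and 527 CPM in OBF1 shRNA libraries, against 456, 477 and 472 CPM in control libraries. The groups did not overlap, and it was 1.12-fold higher (log2 fold change 0.16, SE 0.03, edgeR adjusted p = 1.11e-05). MYBBP1A, a nucleolar repressor of ribosomal RNA transcription, was 1.12-fold higher (edgeR adjusted p = 3.53e-05), but not with library sizes alone (adjusted p = 0.0774). DDX21, an RNA helicase of ribosomal RNA transcription and processing, was 1.05-fold higher (edgeR adjusted p = 0.0162). Its log2 fold change was -0.04 with library sizes alone, and upper-quartile factors did not give the call either (edgeR adjusted p = 0.0684). The call was also lost without OBF1 shRNA replicate 2 (edgeR adjusted p = 0.0542) and without control replicate 1 (0.0531). GNL3, the GTPase nucleostemin, had a log2 fold change of 0.01 and overlapping groups.

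Among the snoRNP core proteins, the enzymes of the box C/D and box H/ACA classes moved apart. FBL, fibrillarin, the methyltransferase of box C/D snoRNPs, had 354, 347 and 352 CPM in OBF1 shRNA libraries, against 289.9, 312 and 291 CPM in control libraries. No OBF1 shRNA library was as low as any control, and FBL was 1.18-fold higher (log2 fold change 0.24, SE 0.03, edgeR adjusted p = 6.41e-07). DKC1, dyskerin, the pseudouridine synthase of box H/ACA snoRNPs and a component of telomerase, had 281, 289 and 289 CPM in OBF1 shRNA libraries, against 337, 349 and 335 CPM in control libraries. The order was reversed here, with DKC1 1.19-fold lower (log2 fold change -0.25, SE 0.03, edgeR adjusted p = 7.18e-08). The within-library ratio of FBL to DKC1 counts was 1.23 ± 0.0283 in OBF1 shRNA and 0.873 ± 0.0173 in control libraries (SD, n = 3 each).

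The scaffold proteins that hold FBL in its particle barely differed. NOP56 had 515 ± 5.19 CPM in OBF1 shRNA and 522 ± 5.73 CPM in control libraries (SD, n = 3 each), with overlapping groups (edgeR adjusted p = 0.479). NOP58, its close relative, had 283 ± 5.82 CPM in OBF1 shRNA and 297 ± 2.27 CPM in control libraries (SD, n = 3 each) and was called lower (log2 fold change -0.07, edgeR adjusted p = 0.0191). That call was lost without OBF1 shRNA replicate 1 (edgeR adjusted p = 0.0949), OBF1 shRNA replicate 3 (0.0622) or control replicate 3 (0.0976). The within-library ratio of NOP56 to NOP58 counts overlapped between groups, at 1.82 ± 0.0551 in OBF1 shRNA and 1.76 ± 0.0328 in control libraries (SD, n = 3 each). RRP9, a protein of the U3 snoRNP that starts precursor cleavage, had a log2 fold change of 0.02 and overlapping groups.

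Of 6 genes of small subunit assembly, 2 were lower, 1 higher and 3 not called under TMM, and 5 were lower and 1 not called with library sizes alone (all tested genes: 37.9% lower under TMM and 48.1% with library sizes). WDR43, a subunit of the early processing complex that binds the growing precursor, had 208, 214 and 209.7 CPM in OBF1 shRNA libraries, against 236, 229 and 235 CPM in control libraries. The OBF1 shRNA libraries lay below all controls, a 1.11-fold lower level (log2 fold change -0.15, SE 0.03, edgeR adjusted p = 4.08e-05). UTP20, a large scaffold of the same assembly, had 186, 200.9 and 186 CPM in OBF1 shRNA libraries, against 203, 203 and 215 CPM in control libraries. Its OBF1 shRNA replicate 2 came close to the controls but did not reach them, and the gene was 1.08-fold lower (edgeR adjusted p = 0.0038). UTP4, a subunit of the same complex as WDR43, was called 1.06-fold higher (edgeR adjusted p = 0.0349), with library sizes alone its log2 fold change was -0.03, and the call was lost there. It was also lost in DESeq2 (adjusted p = 0.0676), with upper-quartile factors (edgeR adjusted p = 0.104), with the replicate number as a block (0.0613), without any 1 of OBF1 shRNA replicates 1, 2 and 3 (0.0666, 0.0646 and 0.0545) and without control replicate 1 (0.122). NOP14 (log2 fold change -0.04), the export factor gene RRP12 (-0.02) and BYSL (-0.03), of late small subunit maturation, were not called under TMM, and all 3 were called lower with library sizes alone.

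Large subunit assembly held both the highest and the lowest fold change of the group. Of 12 genes, 7 were higher, 1 lower and 4 not called under TMM, beside 37.5% higher and 37.9% lower of all tested genes. With library sizes alone the same 12 gave 3 higher and 4 lower, beside 28.9% and 48.1% of all tested genes. PPAN, a factor of early large subunit assembly, had 97.4, 93.7 and 96.5 CPM in OBF1 shRNA libraries, against 68.7, 71.5 and 69.7 CPM in control libraries. The groups were far apart, with PPAN 1.37-fold higher (log2 fold change 0.45, SE 0.03, edgeR adjusted p = 6.23e-10, and 7.73e-06 against 1.2-fold). PPAN shares exons with the read-through gene PPAN-P2RY11, which has a row of its own at 112 CPM in OBF1 shRNA against 88.3 CPM in control libraries, so how reads were divided between them is uncertain. WDR74, which works with the helicase MTREX on the large subunit precursor, had 92.9, 84.0 and 86.7 CPM in OBF1 shRNA libraries, against 119, 130.1 and 126 CPM in control libraries. It was lower in every OBF1 shRNA library, 1.42-fold on average (log2 fold change -0.51, SE 0.04, edgeR adjusted p = 1.88e-09). The ratio of PPAN to WDR74 counts was 1.09 ± 0.0379 in OBF1 shRNA and 0.560 ± 0.0165 in control libraries (SD, n = 3 each).

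PES1, BOP1 and WDR12 form the PeBoW complex, which is needed to process the precursor of the large subunit RNAs. BOP1 had 9.85, 10.3 and 10.2 CPM in OBF1 shRNA libraries, against 6.27, 7.59 and 6.79 CPM in control libraries, the lowest level of the group, and every OBF1 shRNA library lay above the controls. It was 1.47-fold higher (log2 fold change 0.55, SE 0.08, edgeR adjusted p = 8.24e-06). How reads mapping to more than 1 place were counted is not given in the sources used here, so the level of BOP1 is uncertain. WDR12 was 1.09-fold higher, at 83.3 ± 2.15 CPM in OBF1 shRNA and 76.1 ± 1.64 CPM in control libraries (SD, n = 3 each, edgeR adjusted p = 0.00213), a call lost with library sizes alone (adjusted p = 0.592). PES1 was not called, at 257 ± 6.31 CPM in OBF1 shRNA and 246 ± 10.2 CPM in control libraries (SD, n = 3 each, edgeR adjusted p = 0.0773), with a log2 fold change of 0.06 under TMM and -0.05 with library sizes alone. It was called higher with no low-count filter (edgeR adjusted p = 0.0355) and without control replicate 2 (0.00352), the highest of the control libraries.

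Other factors of the large subunit were higher or were not called under TMM. GRWD1, a histone chaperone that also binds ribosome precursors, had 125, 124 and 128 CPM in OBF1 shRNA libraries, against 102.2, 108 and 99.3 CPM in control libraries. Every OBF1 shRNA library was above the controls, by 1.21-fold on average (log2 fold change 0.28, SE 0.03, edgeR adjusted p = 6.31e-07). NOP16, a nucleolar protein of the large subunit pathway, was 1.11-fold higher, and the helicase gene DDX18 had a log2 fold change of 0.13 (edgeR adjusted p = 0.000101 and 0.000197), and both calls were lost with library sizes alone. NOP2, a methyltransferase of the large subunit RNA, was 1.05-fold higher (edgeR adjusted p = 0.0236). That call did not hold with library sizes alone (log2 fold change -0.04), with upper-quartile factors (edgeR adjusted p = 0.0992), without OBF1 shRNA replicate 1 (edgeR adjusted p = 0.0743) or control replicate 2 (0.0534). MRTO4, which holds the place of the ribosomal stalk, NIP7 and RRP1B had log2 fold changes of -0.06, -0.04 and -0.01 and were not called, while library sizes alone put all 3 among the lower genes. MRTO4 was also called lower with upper-quartile factors (edgeR adjusted p = 0.0187) and without OBF1 shRNA replicate 1 (0.0465).

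**Figure D3:**
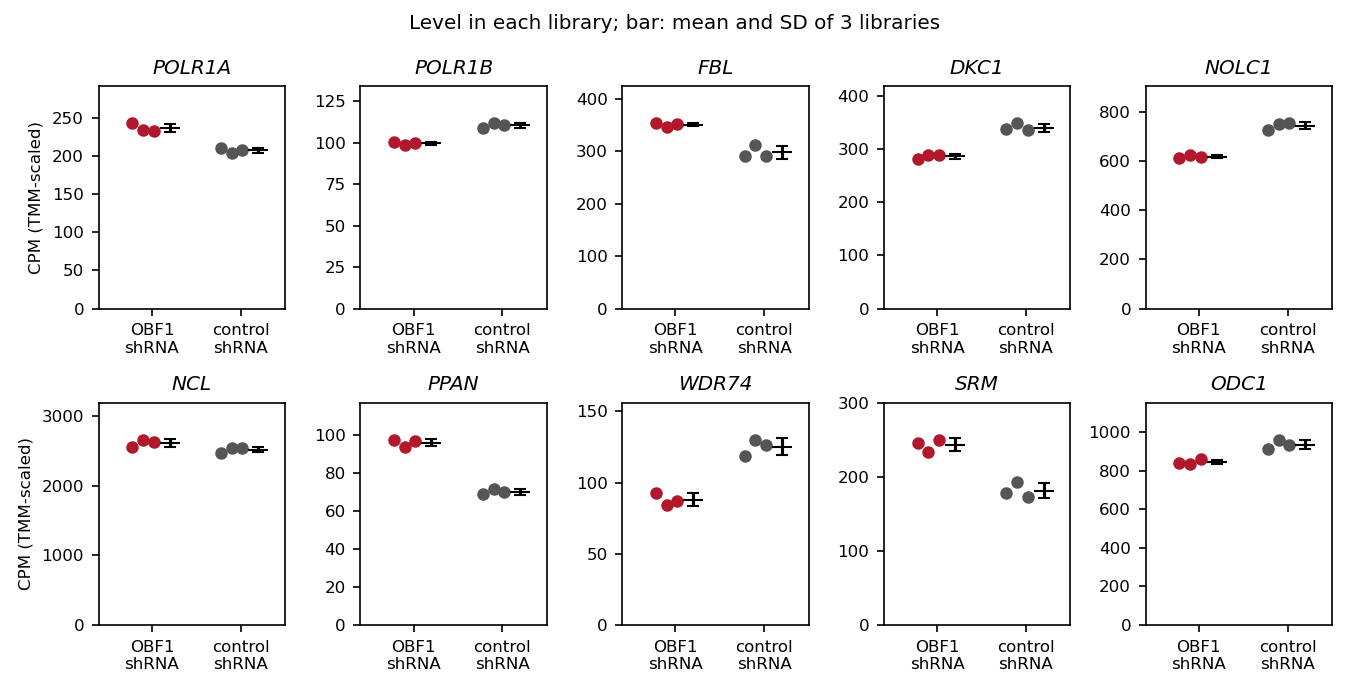
Level of 10 genes in each library in CPM (TMM-scaled, vertical axes from 0), OBF1 shRNA left and control shRNA right, with the mean and SD of 3 libraries beside the points. POLR1A, FBL, PPAN and SRM lie higher and POLR1B, DKC1, NOLC1, WDR74 and ODC1 lower in OBF1 shRNA libraries, while the points of NCL, which was not called, lie close together.

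The metabolic MYC targets also divided, most clearly within polyamine synthesis. SRM, spermidine synthase, had 246, 234 and 250.1 CPM in OBF1 shRNA libraries, against 178, 192 and 173 CPM in control libraries. The groups were well separated, with SRM 1.34-fold higher (log2 fold change 0.43, SE 0.04, edgeR adjusted p = 4.88e-09, and 9.58e-05 against 1.2-fold). ODC1, ornithine decarboxylase, the rate-limiting enzyme upstream of SRM and a textbook MYC target, had 841, 835 and 859 CPM in OBF1 shRNA libraries, against 913, 961 and 930.1 CPM in control libraries. All OBF1 shRNA libraries lay below the controls, a 1.11-fold lower level (log2 fold change -0.15, SE 0.03, edgeR adjusted p = 4.77e-05). The ratio of SRM to ODC1 counts within a library was 0.288 ± 0.00658 in OBF1 shRNA and 0.194 ± 0.00748 in control libraries (SD, n = 3 each).

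CAD, which carries out the opening steps of pyrimidine synthesis, did not differ beyond its spread, at 244 ± 6.29 CPM in OBF1 shRNA and 247 ± 2.33 CPM in control libraries (SD, n = 3 each, edgeR adjusted p = 0.484). SLC19A1, the reduced folate carrier, had 50.0, 49.3 and 56.9 CPM in OBF1 shRNA libraries, against 61.8, 68.9 and 58.8 CPM in control libraries. The groups were separate by a small margin, and it was 1.21-fold lower (log2 fold change -0.28, SE 0.06, edgeR adjusted p = 0.000273). TFB2M, a transcription factor of mitochondrial DNA, was 1.07-fold lower (edgeR adjusted p = 0.0203). DESeq2 did not call it (adjusted p = 0.0532), nor did edgeR when OBF1 shRNA replicate 2 was left out (adjusted p = 0.0896), control replicate 1 (0.0726) or control replicate 2 (0.0827).

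Levels between genes were compared per kilobase of the deposited gene length, as RPKM (CPM divided by the length in kilobases). NCL was the most abundant at 961 RPKM in OBF1 shRNA and 926 RPKM in control libraries. ODC1 followed in control libraries at 394 RPKM, with NPM1 at 369 RPKM, while in OBF1 shRNA libraries ODC1 had 357 RPKM and NPM1 397 RPKM, so that the order of this pair changed. NOP56 was the most abundant of the snoRNP proteins at 220.4 RPKM in OBF1 shRNA and 223 RPKM in control libraries. The polymerase subunits were far lower, POLR1A at 33.9 RPKM in OBF1 shRNA and 29.8 RPKM in control libraries and POLR1B at 18.1 RPKM in OBF1 shRNA and 20.1 RPKM in control libraries. BOP1 came last at 4.27 RPKM in OBF1 shRNA and 2.90 RPKM in control libraries, below UTP4 at 15.8 RPKM in OBF1 shRNA and 15.0 RPKM in control libraries.

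Some of these genes overlap others on the chromosome, and the strand setting of the counting is not given in the sources used here. NOP14-AS1, antisense to NOP14, had 12.6 CPM in OBF1 shRNA against 6.10 CPM in control libraries, and COL18A1, which overlaps SLC19A1, had 0.597 CPM in OBF1 shRNA against 3.54 CPM in control libraries. KCNJ14, which overlaps GRWD1, had 2.96 CPM in OBF1 shRNA against 8.10 CPM in control libraries. MED20, which overlaps BYSL, had 40.8 CPM in OBF1 shRNA against 53.5 CPM in control libraries. GLT8D1, which overlaps GNL3, was higher, at 42.8 to 43.8 CPM in OBF1 shRNA against 36.5 to 39.0 CPM in control libraries. WDR74 overlaps the small nuclear RNA gene RNU2-2 and the noncoding RNA gene STX5-DT, and neither has a row of its own. Reads from such pairs could be shared, and this was not tested.

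The other genes of the pathway were then examined as 5 wider lists without the 37 genes. Among small subunit assembly factors, 26 of 44 tested were higher and 10 lower, where 37.5% and 37.9% of all tested genes were, with a median log2 fold change of 0.10 beside -0.01 for all tested genes. With library sizes alone this became 15 higher and 15 lower, where 28.9% and 48.1% of all tested genes were. RRP36, a factor of early precursor cleavage, was 1.52-fold higher, at 79.5 ± 0.584 CPM in OBF1 shRNA and 52.3 ± 1.48 CPM in control libraries (SD, n = 3 each, edgeR adjusted p = 2.69e-11). NAT10, which acetylates the small subunit RNA, was 1.29-fold higher (edgeR adjusted p = 1.93e-10). NGDN, of the same processing complex, was 1.43-fold lower, and RIOK2, a kinase of late small subunit maturation, 1.33-fold lower.

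Of 48 tested large subunit assembly factors, 16 were higher and 15 lower under TMM (37.5% and 37.9% of all tested genes), with a median log2 fold change of 0.04. With library sizes alone 2 were higher and 24 lower (28.9% and 48.1% of all tested genes), the lower share lying near that of the whole table. Their lower genes reached further than any of the 37. RSL24D1, a placeholder for a ribosomal protein on the precursor, was 1.79-fold lower, at 153 ± 5.09 CPM in OBF1 shRNA and 273 ± 2.58 CPM in control libraries (SD, n = 3 each, edgeR adjusted p = 7.31e-15). NOL9, a kinase that takes part in precursor processing, was 1.80-fold lower, at 54.5 ± 0.630 CPM in OBF1 shRNA and 98.1 ± 1.51 CPM in control libraries (SD, n = 3 each, edgeR adjusted p = 7.09e-14). URB1, of early large subunit assembly, was 1.43-fold higher and WDR18, of a late nuclear complex, 1.36-fold higher.

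Factors of RNA polymerase I and the snoRNPs were lower in 14 and higher in 7 of 28 cases under TMM (37.9% lower and 37.5% higher over all tested genes), with a median log2 fold change of -0.08. They were lower in 16 and higher in 2 with library sizes alone (48.1% and 28.9% over all tested genes). The list also holds TOP1MT, a mitochondrial topoisomerase gene, which counts among the lower genes under both scalings. RRN3, which brings RNA polymerase I to the ribosomal RNA promoter, was 1.70-fold lower, at 80.4 ± 3.18 CPM in OBF1 shRNA and 136 ± 1.11 CPM in control libraries (SD, n = 3 each, log2 fold change -0.76, SE 0.03, edgeR adjusted p = 2.78e-13). ZNHIT6, of box C/D assembly, was 1.42-fold lower. NHP2, a core protein of the box H/ACA particle that DKC1 belongs to, was higher, at 144 CPM in OBF1 shRNA against 115 CPM in control libraries (log2 fold change 0.33, edgeR adjusted p = 1.47e-07), while DKC1 was lower. PIH1D1, of the chaperone complex that assembles snoRNPs, was 1.19-fold higher.

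The exosome, which trims ribosomal RNA ends, was listed together with other genes of ribosomal RNA processing. This list had 9 higher and 6 lower of 19 genes under TMM, and 1 higher and 8 lower with library sizes alone. Over all tested genes the shares were 37.5% and 37.9% under TMM, and 28.9% and 48.1% with library sizes. The exosome subunits EXOSC8 and EXOSC9 differed in direction, EXOSC8 being 1.44-fold lower and EXOSC9 1.13-fold higher (edgeR adjusted p = 6.37e-09 and 3.49e-05). ERI1, which trims an end of the large subunit RNAs, was 1.48-fold lower, and the exosome helicase gene MTREX 1.11-fold higher, a call that library sizes alone did not give (adjusted p = 0.215). Of 21 tested genes of polyamine, pyrimidine and folate metabolism, 10 were higher and 7 lower, or 6 and 10 with library sizes alone. Read against those shares, the library-size counts of this list were close to the whole table. EIF5A, the translation factor that carries a spermidine-derived hypusine, was 1.21-fold higher, at 908 ± 7.61 CPM in OBF1 shRNA and 754 ± 8.48 CPM in control libraries (SD, n = 3 each). DOHH, the hydroxylase that completes hypusine, was 2.61-fold lower, at 5.82 ± 0.681 CPM in OBF1 shRNA and 15.2 ± 2.29 CPM in control libraries (SD, n = 3 each, log2 fold change -1.38, SE 0.11, edgeR adjusted p = 1.66e-09). FPGS, which retains folate in the cell by adding glutamates, was 1.34-fold higher and GGH, which removes them, 1.23-fold lower.

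**Figure D4:**
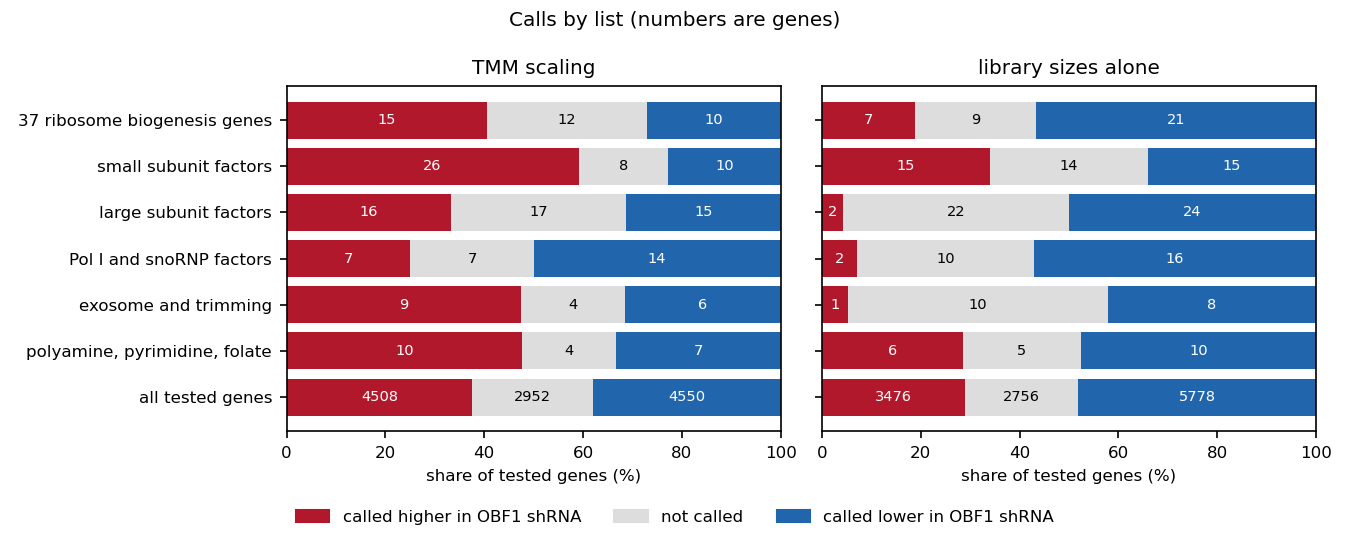
Share of tested genes (horizontal axis, in percent) called higher, not called and called lower in OBF1 shRNA cells for the 37 genes, the 5 wider lists and all tested genes, with the number of genes in each bar. The left panel uses TMM scaling and the right panel library sizes alone, under which the higher share is smaller in every row; the 37 genes give 15 higher and 10 lower on the left, and 7 higher and 21 lower on the right.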

How the data were processed

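The authors deposited 1 table of raw read counts per gene, with 6 library columns, beside the length of each gene. Builds hg19 and mm9 are named in the submitters' processing notes. The aligner, counter, annotation and strand setting are not stated in the labels or the file header. Libraries were made with a stranded mRNA kit, per the labels' protocols. Gene identifiers were matched to symbols in a RefSeq table (GRCh38.p14) for 23308 of 23459 rows, and all 6 count columns were used. The 151 rows without a symbol held 0.115% to 0.138% of all counts per library and were kept.

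The tests used edgeR 4.0.16 in R 4.3.3. Counts were filtered with filterByExpr (min.count 10, min.total.count 15), scaled by TMM and fitted with glmQLFit and glmQLFTest on all 6 libraries with no covariate. P-values were adjusted by Benjamini-Hochberg over 12010 genes, and called under 0.05. Standard errors were derived from the log2 fold change and the square root of F. The scripts were tested on simulated data. Chi-square per degree of freedom between libraries of 1 group ranged from 1.88 to 3.28, so none looked like 1 library deposited again.

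Alternatives were library sizes alone, RLE and upper-quartile factors, DESeq2 1.42.0, limma-voom (limma 3.58.1), no low-count filter, 1 CPM in 3 libraries, a replicate block, glmTreat against 1.2-fold, and leaving out each library. The text names the 37 genes, POU2AF1, MYC, and from each of 5 wider lists the 2 called genes with the smallest p-values in each direction. Marker, overlapping and ratio genes were added, the ratio genes after their values were seen, and TOP1MT was named for its place in a list. The group and all lists were chosen with earlier results of these data known.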

Additional observations from a re-analysis of the deposited data

How the results depend on the processing

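Library sizes alone gave fewer higher and more lower calls than TMM. Among the 37 genes, 17 calls were kept, 8 lost, 11 gained and 0 reversed. The test against 1.2-fold, which asks for a larger effect by construction, lowered every count. With library sizes alone, the 37 genes gave 7 higher and 21 lower calls. Their median log2 fold change was -0.10, beside -0.12 over all tested genes. The wider lists then gave 15 higher and 15 lower of 44 small subunit factors, and 2 higher and 24 lower of 48 large subunit factors. They gave 2 higher and 16 lower of 28 polymerase I and snoRNP factors. Of 19 genes in the exosome and processing list, 1 was higher and 8 were lower. Of 21 metabolic genes, 6 were higher and 10 lower. Over all tested genes, 28.9% were higher and 48.1% lower. Log2 fold changes that turned from above to below 0 were -0.0559 for NCL, -0.00607 for NPM1, -0.0413 for DDX21, -0.10 for GNL3, -0.0935 for RRP9, -0.0294 for UTP4, -0.0475 for PES1 and -0.0408 for NOP2. Against 1.2-fold, 4882 genes were called over the whole table (21.3% higher and 19.4% lower), and 3 higher and 1 lower of the 37. In the wider lists that test left 9 higher and 4 lower of 44 small subunit factors, and 2 higher and 5 lower of 48 large subunit factors. It left 1 higher and 5 lower of 28 polymerase I and snoRNP factors. In the exosome and processing list it left 0 higher and 3 lower of 19 genes (9 and 6 by the edgeR test against no change). Of the 21 metabolic genes it left 2 higher and 2 lower.

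Leaving out 1 library gave 13 to 16 higher and 9 to 10 lower calls among the 37, and 8632 to 8974 called genes, against 9058 with all. None of the 25 calls under TMM turned to the opposite call in any fit. NCL, not called there, was called lower with library sizes alone and higher in 5 other fits. RLE factors and the filter of 1 CPM in 3 libraries kept all 25. Same-numbered libraries deviated from their group means with correlations of 0.01, -0.12 and -0.06, and other pairs with -0.05 to 0.11. With 3 libraries per group, these values cannot show whether same-numbered libraries were prepared together. With the replicate block, 8759 genes were called, and 14 higher and 10 lower of the 37, UTP4 being the call lost. BOP1, the gene of the lowest level, had the widest standard error of the 37 (0.08), and the cause was not tested.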
